A study of Mus musculus with 8 samples.

Results

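Genes that mark neural progenitors were followed in mouse embryonic stem (ES) cells: the transcription factor genes Olig2, Sox1, Sox3, Pax6 and Zic2, and Nes, which encodes the intermediate filament nestin. They were chosen by name, as the probe sets whose only gene symbol in the array's annotation was one of these 6, which gave 14 of the 45101 probe sets and 6 of the 18193 genes on the array. RNA was measured on Affymetrix GeneChip mouse arrays, on which a probe set is a set of short probes, usually annotated to 1 gene. Each group of samples had 2 arrays. The groups were Rbp2-/- ES cells after 6 days in ES cell medium lacking leukemia inhibitory factor (LIF), Rbp2f/f ES cells after the same 6 days, Rbp2-/- ES cells with LIF and Rbp2f/f ES cells with LIF. Rbp2f/f cells carry floxed but undeleted copies of the gene, which is taken here to be the one now named Kdm5a, encoding a histone H3 lysine 4 demethylase. The labels call the samples of a group biological replicates without naming clones or cultures, so the p-values cover only the spread among these samples, some of which may be technical.

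LIF is the cytokine that holds mouse ES cells in self-renewal, and cells that lose it leave that state and can enter any germ layer. Sox1 and Sox3 belong, with Sox2, to the SOXB1 family of HMG-box factors that keep neural progenitors undifferentiated. Sox1 marks the early neural plate, whereas Sox2 is also a core pluripotency factor. Olig2 is a basic helix-loop-helix (bHLH) factor of motor neuron and oligodendrocyte progenitors, Pax6 is a paired-box factor of forebrain and eye progenitors, and Zic2 is a zinc-finger factor needed for neural tube closure and forebrain midline development. Nestin is widely used as a progenitor marker, although it is not restricted to neural cells.

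In the assembly GRCm38.p6, Olig2 lies at chr16:91225550-91228677, Sox1 at chr8:12395519-12399555 and Sox3 at chrX:60891366-60893430. Pax6 lies at chr2:105668896-105698410, Nes at chr3:87971093-87980451 and Zic2 at chr14:122475384-122480328. RefSeq promoter entries of that assembly were matched for Olig2, Sox1, Pax6 and Nes. The windows of Olig2, Sox1 and Nes are shown because they hold CCGCCC, a sequence that the DNA-binding ARID domain of RBP2 has been reported to recognise. Each is the 250 bases before the gene's start on the plus strand, at chr16:91225300-91225549 for Olig2, chr8:12395269-12395518 for Sox1 and chr3:87970843-87971092 for Nes, and capitals mark CCGCCC on either strand (GGGCGG where the reverse strand holds it).
Olig2: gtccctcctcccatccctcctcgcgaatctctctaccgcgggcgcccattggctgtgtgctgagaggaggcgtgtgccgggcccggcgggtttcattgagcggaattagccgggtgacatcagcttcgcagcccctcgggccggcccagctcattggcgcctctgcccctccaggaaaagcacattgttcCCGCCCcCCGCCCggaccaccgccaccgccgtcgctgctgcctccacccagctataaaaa
Sox1: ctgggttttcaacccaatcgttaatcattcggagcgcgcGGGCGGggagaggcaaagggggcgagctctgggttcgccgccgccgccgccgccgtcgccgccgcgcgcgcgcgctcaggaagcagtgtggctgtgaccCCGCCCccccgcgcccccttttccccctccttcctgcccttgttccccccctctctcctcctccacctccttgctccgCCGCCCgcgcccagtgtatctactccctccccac
Nes: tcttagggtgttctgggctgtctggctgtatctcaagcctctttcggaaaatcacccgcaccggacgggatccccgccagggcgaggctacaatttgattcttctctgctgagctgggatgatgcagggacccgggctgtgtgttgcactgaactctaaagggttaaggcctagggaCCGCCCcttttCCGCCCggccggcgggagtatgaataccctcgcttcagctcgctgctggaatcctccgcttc
The Olig2 window had 2 copies, the Sox1 window 3 and the Nes window 2, and both Pax6 windows had 0. Of all 32851 promoter windows of this length, 10756 (32.7%) held the motif on either strand, so its presence in a window is a common feature and a description only. The Olig2 window had 22 CpG dinucleotides, the Sox1 window 29, and the Nes window and each Pax6 window 15. The median over all windows was 6. The motif CCGCCC itself holds a CpG, so windows shown for holding it are not a free choice in this respect. No binding was measured here.

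The deposited intensities are on a linear scale and the arrays were not all at the same level. The 2% trimmed mean was 77.0 on replicate 2 of Rbp2-/- with LIF, against 110 to 128 on the other 7 arrays, and the genes of that array lay at a median of -0.46 in log2 below the mean of the arrays. For the tests, arrays were therefore quantile normalized, which gives all arrays one distribution, and differences are on the log2(intensity + 16) scale, which understates the change of dim genes. Across genes, arrays of a group correlated at 0.958 to 0.982, and the second Rbp2-/- array without LIF was nearer to the first Rbp2f/f array without LIF (0.979) than to its own replicate (0.972). With LIF, the first Rbp2-/- array was as near to the second Rbp2f/f array (0.959) as to its own replicate (0.958). The dim array correlated with the arrays without LIF at 0.897 to 0.922, against 0.864 to 0.891 for its replicate, so it differed in more than level. The targeted gene Kdm5a had deposited intensities of 100 and 80.2 in Rbp2-/- without LIF and 225.7 and 246.6 in Rbp2f/f without LIF. With LIF it had 31.2 and 30.6 in Rbp2-/-, against 128.2 and 167.2 in Rbp2f/f. Averaged over both media Kdm5a was lower in Rbp2-/- by limma (log2 difference -1.44 ± 0.15 (SE), adjusted p = 0.026). Whether its probe set lies inside the deleted part is not known here.

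Each gene was represented by its brightest probe set, and the 10916 genes at or above the 40th percentile of mean intensity were tested with limma, with p-values adjusted by Benjamini-Hochberg over all of them and a call at an adjusted p under 0.05. Olig2, Sox3, Nes and Zic2 were tested, at percentiles of 63, 60.9, 79.3 and 45.3 among all genes, in that order. Pax6, at percentile 35.5, and Sox1, at percentile 7.89, were under the limit and have no test in that fit. Zic2 is the tested gene closest to the limit, and Pax6 the untested one closest to it. Values of different probe sets are not compared in level, since probes differ in how brightly they bind.

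**Figure D1:**
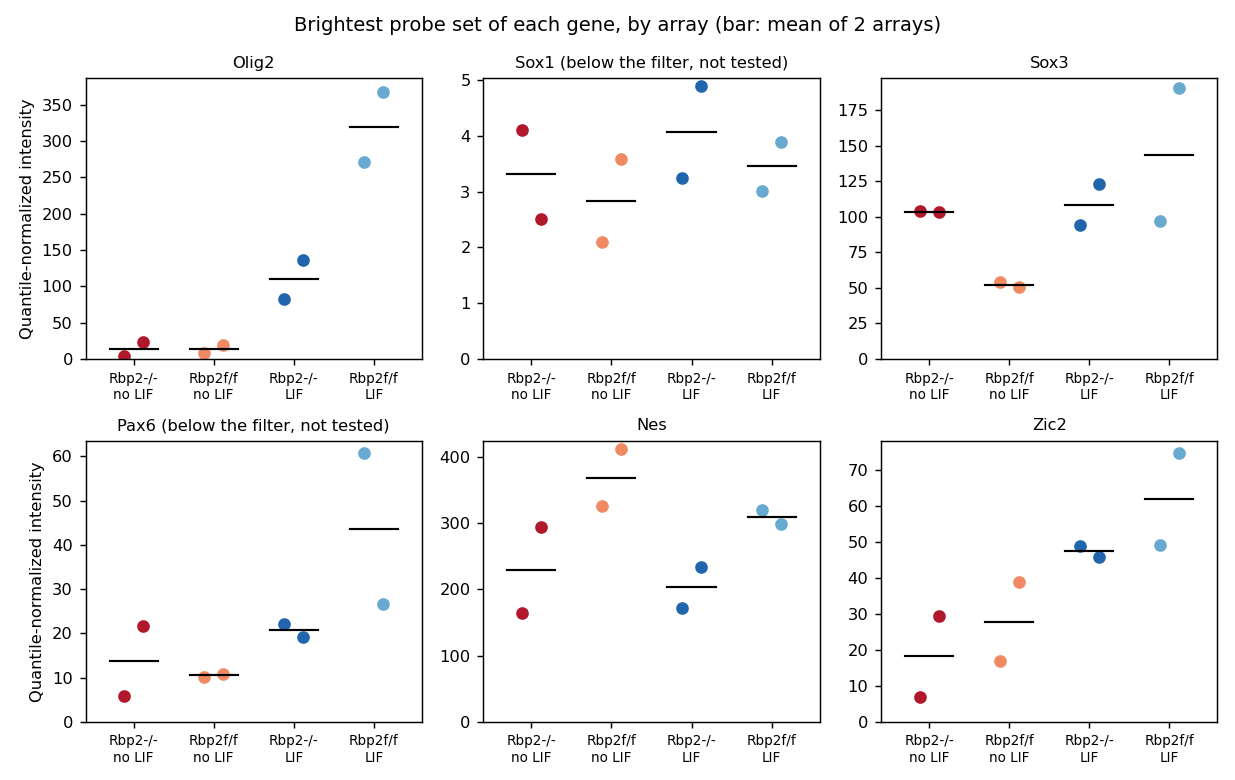
Normalized intensity (vertical axes, linear) of the brightest probe set of each of the 6 genes on each of the 8 arrays, by group. Points are single arrays and bars are group means. Olig2 sits at 4.81 to 22.9 on the 4 arrays without LIF and at 82.3 or above on the 4 arrays with LIF, with Rbp2f/f above Rbp2-/-.

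LIF withdrawal asks which genes differ between cells after 6 days without LIF and cells kept in it. None of the 4 tested genes was called higher without LIF in either genotype. Olig2 fell in both genotypes, Sox3 fell in Rbp2f/f cells, and Nes and Zic2 were not called. In Rbp2-/- cells 1 of the 4 tested genes was called, against 15.5% of all genes (1695 of 10916, of which 8.24% lower), and in Rbp2f/f cells 2 were called, against 27.2% of all genes (2965, of which 13.1% lower). The median difference of the 4 genes was -0.51 in Rbp2-/- cells and -1.01 in Rbp2f/f cells, while that of all genes tested was 0.001 and -0.02. On the values as deposited, 85.5% of all genes called in Rbp2-/- cells were higher without LIF, against 46.9% after normalization, and in Rbp2f/f cells the share was 65.8%, against 51.6%.

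Olig2 (probe set 1416232_at) had the largest fall of the 4 tested genes. Its deposited intensity was 5.3 and 27.3 in Rbp2-/- without LIF, against 75.8 and 90.8 in Rbp2-/- with LIF. In Rbp2f/f cells it was 8.7 and 20.6 without LIF, against 267.6 and 381.4 with LIF. The highest array without LIF was thus well below the lowest array with LIF in each genotype, and the 4 arrays without LIF overlapped between genotypes. On the normalized scale Olig2 averaged 13.8 ± 12.8 in Rbp2-/- without LIF and 109.5 ± 38.6 in Rbp2-/- with LIF (SD, n = 2 each). The corresponding means in Rbp2f/f cells were 14.05 ± 7.85 without LIF and 319 ± 68.8 with LIF (SD, n = 2 each). By limma the log2 difference was -2.11 ± 0.36 in Rbp2-/- cells (SE, adjusted p = 0.0052, 95% interval -2.91 to -1.31) and -3.49 ± 0.36 in Rbp2f/f cells (adjusted p = 0.00041, interval -4.29 to -2.69). Without LIF the Olig2 probe set lay at percentiles of 24 to 51.9 within its arrays, a range not shown to be above background, so the sizes and intervals describe the intensities as measured and depend on the low values.

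Olig1, the closely related bHLH gene of the same lineage, lies on the same chromosome at chr16:91269769-91271939, 41091 bases from Olig2. Its deposited intensity was 34.1 and 59.2 in Rbp2-/- without LIF, against 230.6 and 195.1 in Rbp2-/- with LIF. Olig1 in Rbp2f/f cells had 50.8 and 49.2 without LIF and 278.7 and 586.4 with LIF. Olig1 fell in both genotypes, with log2 differences of -2.33 ± 0.30 in Rbp2-/- cells and -2.73 ± 0.30 in Rbp2f/f cells (limma, adjusted p = 0.0014 and 0.00059). Both genes of this pair were thus brighter on every array with LIF than on any array without it.

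Sox3 was called for withdrawal in Rbp2f/f cells only, and no difference of Sox3 between the genotypes was called. Its brighter probe set (1435192_at) had 109.8 and 123.3 in Rbp2-/- without LIF, against 86.8 and 82.4 in Rbp2-/- with LIF. The same probe set in Rbp2f/f cells had 57.9 and 55.3 without LIF, against 93.1 and 190.4 with LIF. The arrays of Rbp2f/f cells did not overlap between the media, and replicate 2 with LIF stood well above replicate 1. After normalization Sox3 was at 104 ± 0.429 in Rbp2-/- without LIF and 109 ± 20.4 in Rbp2-/- with LIF (SD, n = 2 each), where the dim array had been brought up. Normalized means in Rbp2f/f cells were 52.2 ± 2.54 without LIF and 144 ± 65.9 with LIF (SD, n = 2 each).

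Sox3 fell without LIF in Rbp2f/f cells (log2 difference -1.16 ± 0.28, adjusted p = 0.015, interval -1.79 to -0.54, limma). In Rbp2-/- cells its difference was -0.05 ± 0.28 (adjusted p = 0.93, interval -0.67 to 0.57), and 0.40 on the values as deposited, so its sign depended on the scaling. The call in Rbp2f/f cells was lost without replicate 2 of Rbp2f/f with LIF (-0.73, adjusted p = 0.064), without replicate 1 of Rbp2f/f without LIF (-1.20, adjusted p = 0.064) and without replicate 2 of that group (-1.12, adjusted p = 0.094). The dimmer Sox3 probe set (1450485_at) had 37.1 and 30.8 in Rbp2-/- without LIF, 29.2 and 4 in Rbp2f/f cells without LIF, 24.9 and 26.9 in Rbp2-/- cells with LIF, and 22.2 and 42.8 in Rbp2f/f cells with LIF. Its arrays overlapped between the media in both genotypes, and its difference in Rbp2f/f cells was -0.66 ± 0.42 (limma over single probe sets, adjusted p = 0.40). Whether the withdrawal difference of Sox3 differed between genotypes was tested by the interaction, 1.12 ± 0.39 (limma, adjusted p = 0.39), which was not called.

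Sox2, the third SOXB1 gene and a pluripotency factor, had 245.8 and 300.7 in Rbp2-/- without LIF, against 2475.5 and 1046.5 in Rbp2-/- with LIF. Sox2 in Rbp2f/f cells had 440.1 and 415 without LIF and 3441 and 3309.4 with LIF. It fell in both genotypes, with log2 differences of -2.89 ± 0.21 in Rbp2-/- cells and -2.90 ± 0.21 in Rbp2f/f cells (limma, adjusted p = 9.6e-05 and 0.00011). Sox1 was near the bottom of the intensity range in every group. Its brightest probe set (1422205_at) had 4.5 and 2.9 in Rbp2-/- without LIF, 2.1 and 3.6 in Rbp2f/f cells without LIF, 3 and 3.9 in Rbp2-/- cells with LIF and 3.3 and 3.5 in Rbp2f/f cells with LIF. The second Sox1 probe set (1438729_at) stayed at 0.4 to 2.5 on 7 arrays and read 19 on replicate 1 of Rbp2f/f with LIF, a value its replicate did not show. At such intensities the array does not show whether Sox1 was expressed.

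Zic2 (probe set 1421301_at) was low and variable. It had 7.5 and 35.4 in Rbp2-/- without LIF, against 44.8 and 31.9 in Rbp2-/- with LIF. The Rbp2f/f arrays had 16.9 and 42.1 without LIF, against 48.9 and 73.3 with LIF. In Rbp2-/- cells the deposited values overlapped between the media, and after normalization they did not. Normalized means were 18.15 ± 15.98 in Rbp2-/- without LIF, against 47.4 ± 2.34 in Rbp2-/- with LIF. In Rbp2f/f they were 27.8 ± 15.5 without LIF, against 62.0 ± 18.0 with LIF (SD, n = 2 each). The log2 differences of -0.97 ± 0.38 in Rbp2-/- cells (interval -1.82 to -0.13) and -0.86 ± 0.38 in Rbp2f/f cells (interval -1.71 to -0.01) were not called (limma, adjusted p = 0.11 and 0.12).

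Zic5, a related zinc-finger gene beside Zic2 at chr14:122459160-122465658, 9725 bases away, had 23.8 and 80 in Rbp2-/- without LIF and 124.3 and 36.9 in Rbp2-/- with LIF. Zic5 in Rbp2f/f cells had 67.1 and 52.2 without LIF and 206.1 and 261.6 with LIF. It fell in Rbp2f/f cells (-1.83 ± 0.41, limma, adjusted p = 0.012), and its difference of -0.86 ± 0.41 in Rbp2-/- cells was not called (adjusted p = 0.19).

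Pax6 had low intensities on its 5 probe sets. The brightest (1419271_at) had 6.4 and 25.9 in Rbp2-/- without LIF, against 20.3 and 14.6 in Rbp2-/- with LIF. The Rbp2f/f arrays had 10.4 and 11.1 without LIF, against 58.7 and 24.9 with LIF. Only the Rbp2f/f arrays kept the media apart, and replicate 1 with LIF carried the highest value. With every probe set fitted on its own and no filter, its difference was -1.11 ± 0.36 in Rbp2f/f cells (limma, adjusted p = 0.098) and -0.35 ± 0.36 in Rbp2-/- cells (adjusted p = 0.67). The other 4 Pax6 probe sets lay between 0.4 and 31.1 on all arrays.

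Nes was clearly measured in every group and was not called for withdrawal. Its brightest probe set (1449022_at) had 172.4 and 341.2 in Rbp2-/- without LIF, against 163 and 157.8 in Rbp2-/- with LIF. In Rbp2f/f cells it had 345.3 and 440.3 without LIF, against 320 and 305.6 with LIF. The deposited arrays without LIF were all above those with LIF of the same genotype. After normalization the Rbp2-/- arrays overlapped, at 229 ± 91.3 without LIF and 203 ± 43.2 with LIF, and Rbp2f/f cells had 369 ± 60.6 without LIF and 309 ± 15.7 with LIF (SD, n = 2 each). The log2 difference was 0.12 ± 0.27 in Rbp2-/- cells (adjusted p = 0.80, interval -0.48 to 0.73) and 0.23 ± 0.27 in Rbp2f/f cells (adjusted p = 0.56, interval -0.38 to 0.84) by limma. Neither interval covers a difference as large as 1 on the log2 scale.

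The second Nes probe set (1418289_at) had 79.8 and 161.6 in Rbp2-/- without LIF, 117.1 and 181.6 in Rbp2f/f cells without LIF, 84.5 and 78.6 in Rbp2-/- cells with LIF, and 117.7 and 129.2 in Rbp2f/f cells with LIF. Its withdrawal differences were -0.03 ± 0.30 in Rbp2-/- cells and 0.06 ± 0.30 in Rbp2f/f cells. The third (1453997_a_at) stayed between 4.6 and 18.7 on all arrays.

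For withdrawal, the arrays of the 2 media did not overlap for 2 of the 4 tested genes in Rbp2-/- cells (Olig2 and Zic2), against 58.7% of all genes, and for all 4 in Rbp2f/f cells, against 68.6%. With 2 arrays a group, arrays that do not overlap are common and say little on their own.

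**Figure D2:**
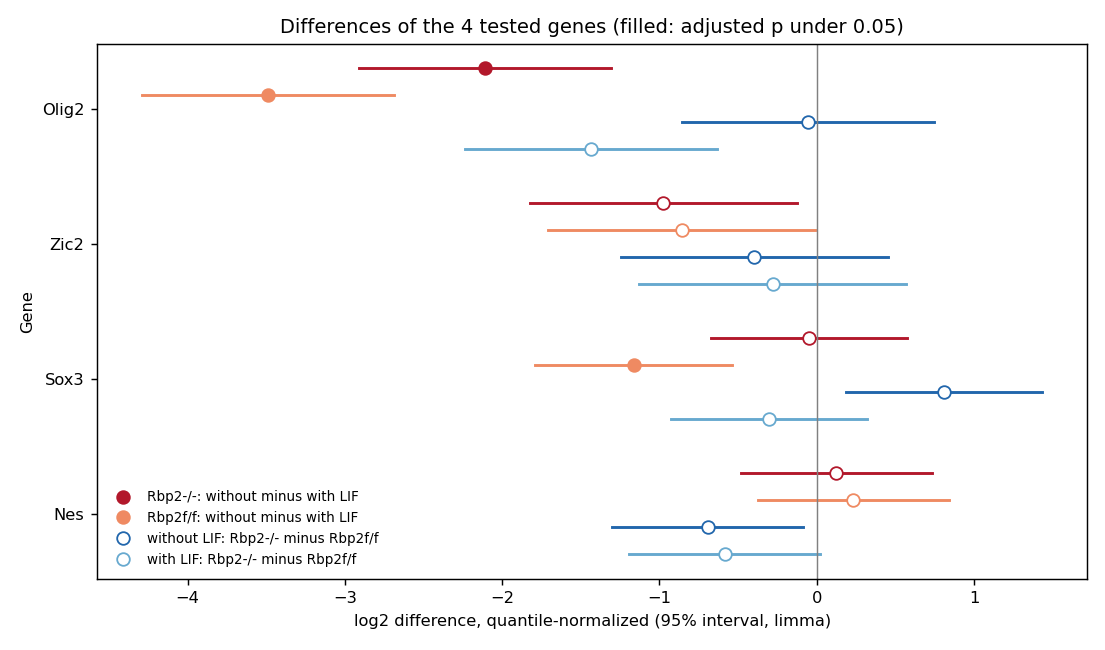
Log2 differences (horizontal axis, on the log2(intensity + 16) scale) with 95% intervals from limma for the 4 tested genes in each comparison, with filled points for an adjusted p under 0.05. The filled points are those of Olig2 for withdrawal in both genotypes (-2.11 and -3.49) and of Sox3 for withdrawal in Rbp2f/f cells (-1.16).

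The genotype comparison asks how cells without RBP2 differ from their floxed controls in the same medium. By limma 0 of the 4 tested genes were called with LIF, without LIF or averaged over both media. Among all genes 0% were called with LIF (1429 at an unadjusted p under 0.05, smallest adjusted p 0.071), 0% without LIF (1553 at an unadjusted p under 0.05, smallest adjusted p 0.11) and 0.137% (15 genes, 0.0824% higher and 0.055% lower) averaged over both media. At an unadjusted p under 0.05 stood 1 tested gene with LIF (Olig2), 2 without LIF (Sox3 and Nes) and 2 averaged over the media (Olig2 and Nes). Averaged over the media, 1821 of all 10916 genes stood there too. The median difference of the 4 genes was -0.45 with LIF and -0.23 without LIF, and that of all genes was -0.01 in both.

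With LIF, Olig2 stood at 75.8 and 90.8 in Rbp2-/- cells, against 267.6 and 381.4 in Rbp2f/f cells, so that both Rbp2-/- arrays were below both Rbp2f/f arrays. Its log2 difference was -1.44 ± 0.36 (interval -2.24 to -0.64, fold 0.369), with an adjusted p of 0.17 by limma, so it was not called. On the values as deposited the difference was -1.76 with an adjusted p of 0.0497, a call, but there the median of all genes was itself at -0.28 with replicate 2 of Rbp2-/- with LIF dim. Without that array the difference was -1.76 after normalization (adjusted p = 0.23, limma). Over all alternatives the difference lay between -1.76 and -1.11, with adjusted p between 0.0497 and 0.41. Without LIF the genotypes were at -0.05 ± 0.36 (interval -0.85 to 0.75, adjusted p = 0.96, limma). The difference between these genotype effects, the interaction, was 1.38 ± 0.50 with an adjusted p of 0.41. For the interaction 0 of the 4 tested genes and 0% of all genes were called by limma, with 2 (Olig2 and Sox3) and 1214 at an unadjusted p under 0.05.

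Nes was lower in Rbp2-/- cells in both media without passing the test. Without LIF its brightest probe set had 172.4 and 341.2 in Rbp2-/- cells, against 345.3 and 440.3 in Rbp2f/f cells. With LIF it had 163 and 157.8 in Rbp2-/- cells, against 320 and 305.6 in Rbp2f/f cells. The arrays of the genotypes did not overlap in either medium, although the values 341.2 and 345.3 nearly met. The log2 difference was -0.69 ± 0.27 without LIF (interval -1.30 to -0.09, adjusted p = 0.29), -0.59 ± 0.27 with LIF (interval -1.19 to 0.02, adjusted p = 0.39) and -0.64 ± 0.19 averaged over the media (adjusted p = 0.15), all by limma. Its sign was the same in all alternatives of these 3 comparisons. The second Nes probe set differed by -0.33 ± 0.30 without LIF, where its arrays overlapped, and by -0.25 ± 0.30 with LIF.

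Sox3 without LIF had 109.8 and 123.3 in Rbp2-/- cells, against 57.9 and 55.3 in Rbp2f/f cells. Both Rbp2-/- arrays were above both Rbp2f/f arrays, and the difference was 0.81 ± 0.28 (interval 0.19 to 1.44), with an adjusted p of 0.24 by limma. With LIF Sox3 was at -0.30 ± 0.28 (interval -0.93 to 0.32, adjusted p = 0.66) with overlapping arrays. The dimmer Sox3 probe set differed by 0.62 ± 0.42 without LIF and by 0.03 ± 0.42 with LIF. Its arrays overlapped in both media (limma over single probe sets, adjusted p = 0.71 and 0.99). Zic2 differed by -0.40 ± 0.38 without LIF (interval -1.24 to 0.45) and by -0.28 ± 0.38 with LIF (interval -1.13 to 0.57), with adjusted p of 0.67 and 0.77 by limma. Pax6 with LIF had 20.3 and 14.6 in Rbp2-/- cells, against 58.7 and 24.9 in Rbp2f/f cells, and its difference of -0.64 ± 0.36 was not called in the fit of single probe sets (limma, adjusted p = 0.59).

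Between genotypes, the arrays did not overlap for 3 of the 4 tested genes with LIF (Olig2, Nes and Zic2), against 40.1% of all genes. Without LIF this held for 2 of the 4 (Sox3 and Nes), against 55.2% of all genes. The normalized Zic2 values that did not overlap with LIF lay close, at 49.0 and 45.7 in Rbp2-/- cells and 49.2 and 74.7 in Rbp2f/f cells.

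Ordered by normalized mean, Olig2 was highest in Rbp2f/f with LIF, then Rbp2-/- with LIF, then the 2 groups without LIF, which did not differ beyond their spread. For Zic2 the order was Rbp2f/f with LIF, Rbp2-/- with LIF, Rbp2f/f without LIF and Rbp2-/- without LIF. The genotypes were not called apart in either medium, and the middle pair was not tested. Pax6 had Rbp2f/f with LIF highest and the other 3 groups close together. Nes had Rbp2f/f without LIF highest, then Rbp2f/f with LIF, Rbp2-/- without LIF and Rbp2-/- with LIF, and Sox3 had Rbp2f/f without LIF lowest with the other 3 groups within their spread.

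**Figure D3:**
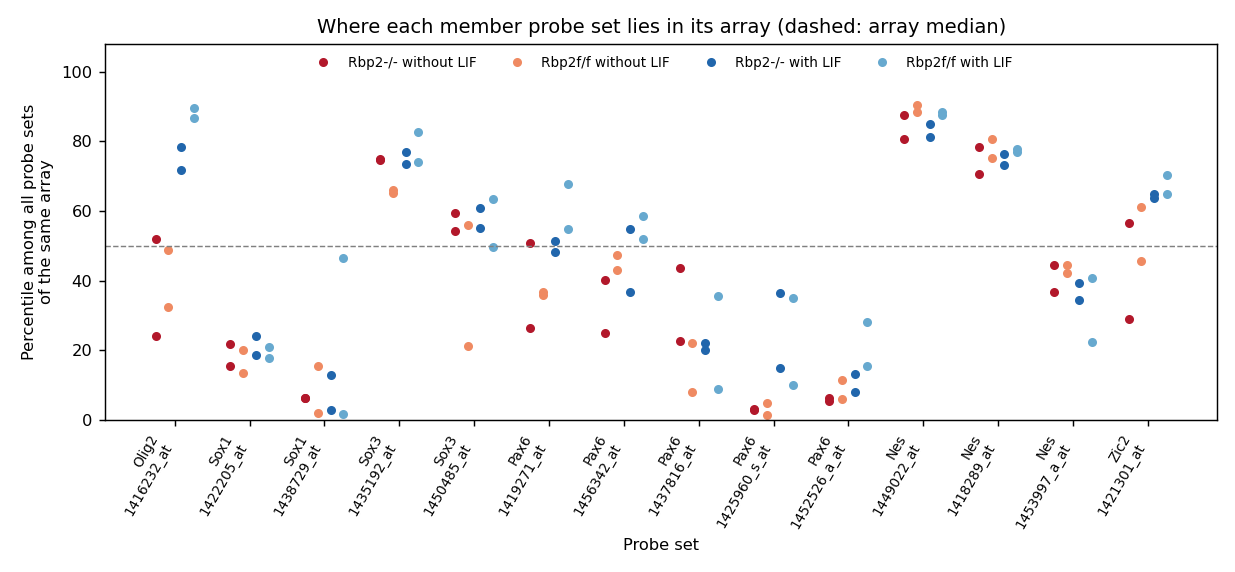
Percentile of each of the 14 probe sets within its own array (0 is the dimmest probe set, 100 the brightest), by array and group. The Olig2 probe set lies at 71.8 to 89.6 on the arrays with LIF and at 24 to 51.9 on those without it, and the brightest Sox1 probe set lies at 13.4 to 24.1 on all arrays.

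The same comparison was made for other genes of the neural programme, taken from lists of textbook genes. Of 43 neural plate and regional transcription factors, 40 were on the array and 13 were bright enough to be tested. In Rbp2-/- cells 1 of the 13 rose without LIF (Meis2) and 4 fell (Sox2, Gbx2, Olig1 and Hesx1), with a median of -0.52. In Rbp2f/f cells 4 rose (Meis2, Irx3, Sall3 and Sox11) and 5 fell (Sox2, Olig1, Gbx2, Zic5 and Hesx1), with a median of -0.58. For all genes 7.28% rose and 8.24% fell in Rbp2-/- cells, and 14% rose and 13.1% fell in Rbp2f/f cells. Meis2, a TALE homeobox factor of many tissues, rose by 1.35 ± 0.31 in Rbp2-/- cells and by 1.82 ± 0.31 in Rbp2f/f cells (limma, adjusted p = 0.019 and 0.0040). Gbx2, a homeobox gene of the hindbrain border that is also active in ES cells, fell in both genotypes, at -2.66 ± 0.31 in Rbp2-/- cells and -1.56 ± 0.31 in Rbp2f/f cells (adjusted p = 0.00091 and 0.0071). The summed normalized intensity of the 40 genes was 1385 and 1892 in Rbp2-/- without LIF, 2229 and 2295 in Rbp2f/f cells without LIF, 3838 and 3627 in Rbp2-/- cells with LIF, and 4843 and 5546 in Rbp2f/f cells with LIF. Sox2 averaged 247 of it in Rbp2-/- without LIF, 404 in Rbp2f/f without LIF, 1982 in Rbp2-/- cells with LIF and 3122 in Rbp2f/f cells with LIF.

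Among Notch pathway and proneural genes, 15 of the 24 on the array were tested. In Rbp2-/- cells 1 rose (the receptor gene Notch3) and 3 fell (Rbpj, Neurod1 and Jag1), with a median of 0.16. In Rbp2f/f cells 4 rose, Id3 among them (1.19 ± 0.28, limma, adjusted p = 0.014), and 3 fell (Neurod1, Rbpj and Hes6). The median there was 0.46. Of the 15 genes, 9 had a positive difference in each genotype. Neurod1, a bHLH factor of neurons, fell in both genotypes, at -1.47 ± 0.23 in Rbp2-/- cells and -2.46 ± 0.23 in Rbp2f/f cells (limma, adjusted p = 0.0035 and 0.00026). Rbpj, the DNA-binding factor of the Notch pathway, fell too, at -1.503 ± 0.18 in Rbp2-/- cells and -1.31 ± 0.18 in Rbp2f/f cells (adjusted p = 0.00094 and 0.0014).

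Of a mixed list of structural, surface and other genes of neural progenitors, 17 of 23 were tested. In Rbp2-/- cells 3 rose (Cxcr4, Hmga2 and Msi2) and 0 fell, with a median of 0.30. In Rbp2f/f cells 6 rose, Hmga2, Cxcr4, Vim and Ccnd2 among them, and 3 fell, with a median of 0.22. Vim, which encodes the intermediate filament vimentin and is also expressed in mesenchyme, had 6832.8 and 6932.5 in Rbp2-/- without LIF and 4707.2 and 4660.4 in Rbp2-/- with LIF. Vim in Rbp2f/f cells had 6688.6 and 6532.9 without LIF and 2477.9 and 1475.9 with LIF. Vim rose in Rbp2f/f cells (1.92 ± 0.21, limma, adjusted p = 0.00054), and its difference of 0.30 ± 0.21 in Rbp2-/- cells was not called (adjusted p = 0.36). With LIF Vim differed between genotypes by 1.58 ± 0.21 (adjusted p = 0.071), a sign opposite to that of Nes.

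Markers of other cell types moved with the withdrawal of LIF. All 10 pluripotency genes fell in both genotypes, with medians of -2.85 in Rbp2-/- cells and -2.43 in Rbp2f/f cells, and their summed normalized intensity was 1541 to 2620 on the arrays without LIF and 11716 to 15844 on those with LIF. Of 8 tested neuron markers, 0 rose and 3 fell in Rbp2-/- cells (Ina, Tubb3 and Nefl), and 1 rose (Gap43) and 2 fell (Ina and Tubb3) in Rbp2f/f cells. Ina, a neurofilament protein gene, was at -3.37 ± 0.17 in Rbp2-/- cells and -2.69 ± 0.17 in Rbp2f/f cells (limma, adjusted p = 2.3e-05 and 6.3e-05). Tubb3, the neuronal tubulin gene, was at -1.46 ± 0.19 in Rbp2-/- cells and -1.49 ± 0.19 in Rbp2f/f cells (adjusted p = 0.0014 and 0.0011).

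Most tested genes of other germ layers went the other way. Of 7 tested mesoderm and endothelium markers 4 rose in Rbp2-/- cells and 6 in Rbp2f/f cells. Of 5 tested endoderm markers 4 rose in Rbp2-/- cells and 5 in Rbp2f/f cells, with 0 called lower in either list. Pecam1, of the first list, was lower without LIF but not called. Its normalized means were 63.0 against 156 with LIF in Rbp2-/- cells, and 18.4 against 82.9 in Rbp2f/f cells. The mesoderm sum was 5828 and 5158 in Rbp2-/- without LIF, 2968 and 2512 in Rbp2f/f cells without LIF, 1137 and 931 in Rbp2-/- cells with LIF, and 550 and 433 in Rbp2f/f cells with LIF. Hand1 (normalized mean 2603 in Rbp2-/- and 781 in Rbp2f/f, without LIF) and Msx2 (1397 and 483) carried the gap between genotypes without LIF. Mixl1 (591 and 634) and Eomes (413 and 570) were not higher in Rbp2-/-, and their Rbp2-/- replicates were uneven, at deposited intensities of 139 and 1145.8 for Mixl1 and 116.3 and 795.3 for Eomes. Feeder fibroblast markers had 1 of 7 higher in Rbp2-/- cells and 4 of 7 higher in Rbp2f/f cells, and their sum of 4018 on replicate 1 of Rbp2-/- without LIF stood above the 1386 of its replicate. Most of that gap was in the collagen gene Col1a1, with deposited intensities of 2811.2 on replicate 1 and 716.1 on replicate 2. Col1a2 (401.3 and 231.2), Fbln2 (511.4 and 261.1), Postn (132.8 and 62.3) and Lum (24.6 and 22.4) were also higher on replicate 1. Col3a1, Thy1, Dcn and S100a4 were lower on replicate 1. On that array the brightest probe sets of Olig2, Zic2, Pax6 and Nes read lower than on its replicate, that of Sox1 read higher (4.5 and 2.9), and Sox3 was nearly equal after normalization (104 and 103). The part of these other cell types in the values of the 6 genes was not tested, and in bulk RNA fewer cells of a type and less RNA per cell cannot be told apart. Between genotypes 0 genes of any list were called by limma in either medium.

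**Figure D4:**
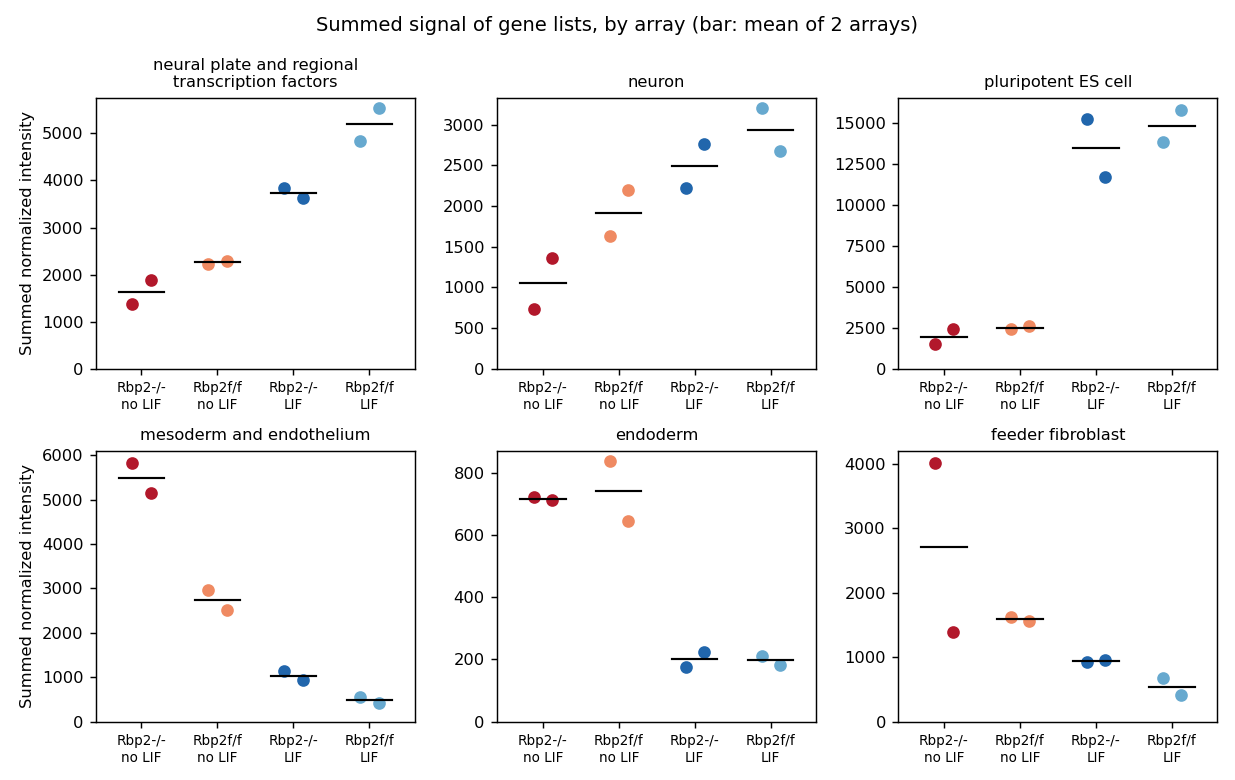
Summed normalized intensity (vertical axes) of the genes of 6 lists on each array, by group, with points for single arrays. The pluripotency sum drops to 1541 to 2620 on the arrays without LIF, while the mesoderm sum is highest in Rbp2-/- without LIF.

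Across the 8 arrays, which share their groups, the genes with a pattern most like each tested gene were named by Pearson correlation of log2 values, as a description. For Olig2 they were Ugt8a (r = 0.994), Zfp532 (0.993) and Cth (0.991), and 389 genes (3.56% of those tested) exceeded 0.9. Ugt8a, the galactosyltransferase gene of myelin lipid synthesis, had withdrawal differences of -1.25 ± 0.27 in Rbp2-/- cells and -2.10 ± 0.27 in Rbp2f/f cells (log2, SE). It was picked for its likeness to Olig2 on these same arrays, so its fall follows from that choice and is no separate result. For Zic2 they were Prrt4 (0.978), the neurofilament gene Nefl (0.97) and Alg3 (0.962), with 68 genes over 0.9. For Nes they were the phosphodiesterase gene Pde4d (0.985), the opioid precursor gene Penk (0.978) and Mecr (0.973), with 63 genes over 0.9. For Sox3 they were Wdr36 (0.956), Psat1 (0.943) and Cep76 (0.939), with 24 genes over 0.9. Among the 4 genes themselves, Olig2 and Zic2 correlated at 0.871, Olig2 and Sox3 at 0.679, and Sox3 and Nes at -0.37.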

How the data were processed

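The values are intensities per probe set on a linear scale, deposited by the authors for 8 Affymetrix arrays of total RNA. Per the labels' protocols, total RNA was column-purified, treated with DNase and copied into biotinylated cRNA. How the authors summarised, corrected and scaled them was not given in the sources used here. Only that the scale is linear is known. The platform annotation pairs 34945 of the 45101 probe sets with 1 gene symbol, 932 with several and 9160 with none. A further 64 were manufacturer controls, which entered the normalization and no test.

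Intensities were quantile normalized between arrays and analysed as log2(value + 16) with limma 3.58.1 in R 4.3.3: all 8 arrays entered 1 fit of 4 group means (lmFit), followed by trended eBayes (4 residual and 5.31 prior degrees of freedom). Tests were two-sided, with Benjamini-Hochberg adjustment over 10916 genes per comparison. Errors are standard errors for log2 differences and standard deviations for intensities. The number of arrays limits the precision. The steps after normalization were tested on simulated data, which did not check the normalization itself. Quantile normalization was chosen because 1 array was dim, and the values as deposited were an alternative. The others were median centring, pseudocounts, filters, summaries of probe sets, variance models, array weights, a replicate block, a stricter threshold, and omission of single arrays. Members and gene lists were chosen with earlier results of these data known. Named were the 6 genes, the 3 tested genes most correlated with each, and up to 4 genes per list with the smallest p in a comparison. Other list genes were named when a count of 5 or fewer called for it, and Vim and Nefl where they stood beside a member, after their values were seen. Replicate numbers were not used as pairs.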

Additional observations from a re-analysis of the deposited data

How the results depend on the processing

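Olig2 was called lower without LIF in both genotypes under all 22 alternatives, with adjusted p of 0.00068 to 0.042 in Rbp2-/- cells and 2.2e-05 to 0.0058 in Rbp2f/f cells (limma). For withdrawal in Rbp2f/f cells, 1 gene in place of 2 was called with the mean of all probe sets of a gene (Sox3 -0.91, adjusted p = 0.060) and at an adjusted p under 0.01, and leaving out 1 array gave 1 to 2. With LIF, 1 gene in place of 0, Olig2, was called between genotypes on the values as deposited. Counts of called members were as in the report under the other alternatives. The sign of some uncalled differences turned. On the values as deposited this held for Olig2 between genotypes without LIF (0.014), Sox3 for withdrawal in Rbp2-/- cells (0.40) and the interactions of Nes (0.25) and Zic2 (0.17). With median centring it held for Sox3 for withdrawal in Rbp2-/- cells (0.15) and the Nes interaction (0.037), and with a pseudocount of 64 for the Zic2 interaction (0.0067). Without 1 array, Sox3 with LIF ranged between -0.73 and 0.13 and Sox3 for withdrawal in Rbp2-/- cells between -0.22 and 0.12. Between genotypes without LIF, Olig2 ranged between -0.50 and 0.39 and Zic2 between -0.88 and 0.10. Nes for withdrawal in Rbp2-/- cells ranged between -0.27 and 0.52, and the interactions between -0.50 and 0.28 (Nes) and between -0.60 and 0.38 (Zic2). The causes were not tested.

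Over the alternatives, the number of all genes called was 0 to 28 with LIF, 0 to 225 without LIF, 0 to 100 averaged over the media, 555 to 2512 for withdrawal in Rbp2-/- cells, 873 to 3351 in Rbp2f/f cells and 0 to 1 for the interaction. On the values as deposited the median of all genes moved to 0.39 for withdrawal in Rbp2-/- cells and to 0.31 for the interaction. Same-numbered arrays correlated in their deviations at -0.068 to -0.0014 in the pairs of groups that include Rbp2f/f with LIF. In the pairs among the other groups they correlated at 0.253 to 0.272. The labels do not say that the numbers are pairs, and the main fit did not use them. A replicate effect shared by those groups was not tested. Without the block, 0 genes were called with LIF, 0 without LIF and 15 averaged over the media. With the replicate number as a block, 1 member was called for withdrawal in Rbp2-/- cells, 2 in Rbp2f/f cells and 0 in the genotype comparisons and the interaction, and all genes called numbered 3 with LIF, 31 without LIF and 100 averaged over the media. Sox1 and Pax6 were under the filter of the main test, and no detection calls were used, so low intensities are not shown to be above background.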

Other observations

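Neural crest markers, which mark cells leaving the edge of the neural plate, split by gene after LIF withdrawal. Snai2, a zinc-finger repressor of migrating crest and of other mesenchyme, rose by 4.53 ± 0.57 in Rbp2-/- cells and by 2.95 ± 0.57 in Rbp2f/f cells on the log2 scale (limma, adjusted p = 0.0013 and 0.0064). With LIF its deposited intensities were 1.6 to 9.1, a range not shown to be above background, so these sizes depend on low values. Its replicates without LIF were uneven, at 971.5 and 321.6 in Rbp2-/- cells and 271.2 and 89.9 in Rbp2f/f cells. Ets1, a factor of crest and endothelium, rose by 1.04 ± 0.25 in Rbp2-/- cells and by 1.85 ± 0.25 in Rbp2f/f cells (adjusted p = 0.023 and 0.0015). Foxd3, which is needed in both crest and pluripotent cells, fell in both genotypes, at -2.09 ± 0.31 in Rbp2-/- cells and -2.70 ± 0.31 in Rbp2f/f cells (adjusted p = 0.0027 and 0.00067). The other tested crest markers, Sox10 and Tfap2a, were not called in either genotype. Of the 4 tested glia markers only 1 was called in each genotype. This was Pdgfra, a receptor of oligodendrocyte progenitors and of mesoderm. Pdgfra rose by 1.80 ± 0.26 in Rbp2-/- cells and by 1.79 ± 0.26 in Rbp2f/f cells (adjusted p = 0.0026 and 0.0021). Its deposited intensities with LIF were 2 to 8.5, also not shown to be above background. Mbp, Sox10 and Slc1a3 were not called in either genotype, with differences of both signs. In the epiblast list of 7 tested genes, 1 rose (Tead2) and 2 fell (Dnmt3b and Dnmt3a) in each genotype. The list median was 0.21 in Rbp2-/- cells and -0.57 in Rbp2f/f cells. Tead2 rose by 1.31 ± 0.27 in Rbp2-/- cells and by 0.996 ± 0.27 in Rbp2f/f cells (limma, adjusted p = 0.013 and 0.026). Dnmt3b, a DNA methyltransferase gene of the epiblast, fell in both genotypes, at -1.40 ± 0.26 in Rbp2-/- cells and -1.99 ± 0.26 in Rbp2f/f cells (adjusted p = 0.0081 and 0.0013).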
